A study of Ictidomys tridecemlineatus with 15 samples.

Results

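Genes of fatty acid oxidation and of the peroxisome were examined in global run-on sequencing (GRO-seq) libraries of the liver of the 13-lined ground squirrel, a hibernator that lives on stored fat through the winter. The members were defined by their names, in a choice made with earlier results of these data known. They were the transcription units with a name that begins with Acad, Acox, Acsl, Acsm, Acot, Acaa, Hadh, Cpt1, Cpt2, Ech, Eci or Pex and a digit, or that equals Ehhadh, Crat, Crot, Etfa, Etfb, Etfdh or Decr1. This gave 55 of the 6324 units of the table, 41 of them with a single gene name and 14 in which overlapping genes had been merged, out of 4705 units with a single name. Merged units are given apart, because their reads cannot be divided among the genes.

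In GRO-seq, nuclei are isolated and the polymerases that sit on genes at that moment extend their RNA with a labelled nucleotide. The reads thus measure polymerases engaged on a gene rather than mRNA levels. The study reports that in torpor transcription often ran past gene ends and into neighbouring genes. It proposes that initiation and termination stop in torpor while elongation goes on very slowly. Reads on a unit in the cold could therefore come in part from an upstream gene, which was not tested here. All animals were females, housed in the laboratory and obtained from a breeding colony, and each carried an implanted temperature recorder. The labels name no genotype, no drug and no age. The 5 states were summer active (SA, warm animals before the hibernation season), interbout aroused (IBA, warm animals between bouts of torpor), entrance (Ent, animals whose body was cooling), early torpor (ET) and late torpor (LT), both cold. There were 3 libraries each of SA, IBA, Ent and ET and 2 of LT, each from its own animal, and LT replicate 2 was not used here. Below, "warm" stands for SA and IBA together and "cold" for ET and LT together.

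In the liver, a fatty acid is first joined to coenzyme A by an acyl-CoA synthetase (the Acsl and Acsm families), carried into mitochondria as an acylcarnitine, and shortened in a cycle of dehydrogenation, hydration, a further dehydrogenation and thiolysis. The electrons of the initial step leave through the electron transfer flavoprotein and its dehydrogenase. Peroxisomes shorten very long and branched chains and the side chains of bile acid precursors, starting with an oxidase in place of the dehydrogenase, and all of their enzymes are imported from the cytosol by the peroxins, the Pex proteins.

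Values are CPM, the counts on a unit scaled to a common library size after TMM normalization. A CPM value is a share of the counted transcription, and the total rate of transcription, which is low in the cold, was not measured. Within a state, values are listed in the order of replicates 1, 2 and 3, and for LT of replicates 1 and 3. A unit is called where its p from edgeR's quasi-likelihood test, adjusted by Benjamini and Hochberg's procedure across the 6324 units, was at or under 0.001, and only for called units is a rise or a fall stated. Differences are log2 fold changes of the later against the earlier state with their standard errors (SE). Calls were repeated in 14 fits that left out 1 library each, and the number of these fits in which a call held is given for most calls of named genes.

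The libraries held 3713883 to 8884763 counts on all units, and the 41 single-gene members took 0.896% of them. The lowest count of any single-gene member in any library was 20. Of 12 hepatocyte markers, 7 had a unit of their own (Apob, Apoc3, Ttr, Tf, Fgb, Cps1 and Hnf4a), and none of these was at 0 in any library. Their summed level was 9213 to 20200.3 CPM in SA, 8886 to 13469 in IBA, 7202 to 8253 in Ent, 3744 to 6007 in ET and 4710 to 7016 in LT, and 4 of the 7 were called lower in the cold. Of 6 endothelial markers, Pecam1 and Kdr had a unit, with a summed level of 132 to 201 CPM in SA, 166 to 184 in IBA, 153 to 186 in Ent, 84.7 to 139 in ET and 73.8 to 91.2 in LT, and 1 of the 2 was called lower in the cold. Of 5 cholangiocyte markers, Sox9 alone had a unit, at 25.9 to 41.0 CPM in SA, 16.5 to 36.0 in IBA, 29.8 to 46.1 in Ent, 10.9 to 18.1 in ET and 7.07 to 10.1 in LT, and it was called lower in the cold. The Kupffer cell, stellate cell, lymphocyte, adipocyte and erythroid lists had no marker with a unit of its own. For comparison, 18.7% of all single-gene units were called lower in the cold. With 2 units and 1 unit, the endothelial and cholangiocyte lists are too short to be set against that share. In bulk liver, fewer cells of a type and less transcription per cell cannot be told apart, and the part of these shifts in the results below was not tested. The IBA animals came from one collection season, the ET animals from another and the LT animals from a further one, whereas SA and Ent mixed the seasons of IBA and LT. Season and state cannot be told apart for ET.

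Per unit length, the members were transcribed above the typical unit of this liver. Their median level over all libraries was 4.81 CPM per kb, against 2.16 CPM per kb over all single-gene units, and 30 of the 41 lay above the latter. Acox2, an oxidase of branched chains and bile acid precursors, had the highest level of the single-gene members at 19.99 CPM per kb, and Pex7, an import receptor, the lowest at 0.581 CPM per kb. Their summed level changed little. It was 7186 to 9580 CPM in SA, 8510 to 9023 in IBA, 8611 to 10528 in Ent, 8437 to 9215 in ET and 8788 to 9002 in LT, and the ranges of all 5 states overlapped.

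Within this group, single genes moved in opposite directions between warm and cold livers. Eci2, an isomerase for unsaturated fatty acids, fell 4.13-fold, and the peroxisomal import genes Pex5 and Pex6 fell 2.59-fold and 2.53-fold. Acsl3, a long-chain acyl-CoA synthetase, rose 2.12-fold and the oxidase Acox3 2.02-fold. The calls of these 5 genes from warm to cold held whichever library was left out, in a comparison in which 37.0% of all single-gene units were called. Crot, a carnitine acyltransferase of peroxisomes, was higher in each IBA library than in any library of the other states, and fell 5.47-fold by LT, a call that was lost when any IBA or LT library was left out.

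Among the 5 states, 10 of the 41 single-gene members were called (24.4%), against 26.4% of all single-gene units. At an adjusted p of 0.05, 27 members passed (65.9%), against 63.3%. From warm to cold, 15 members were called (36.6%), against 37.0% of all, with 9 higher and 6 lower in the cold, against 18.3% of all units higher and 18.7% lower. At 0.05, 28 members passed, 16 higher and 12 lower (68.3%, against 65.1% of all, 30.1% higher and 35.0% lower). From IBA, the warm interval between bouts, to LT, 5 members were called (12.2%), against 17.6% of all, with 1 higher and 4 lower, against 9.46% and 8.18%. This split depended on the setting, with 3 higher and 3 lower when library sizes were total counts or uniquely mapped reads, and 6 higher and 7 lower in DESeq2. At 0.05, 16 members passed, 8 each way (39.0%, against 50.7% of all, 24.1% higher and 26.6% lower). The median log2 fold change was -0.03 from warm to cold and -0.05 from IBA to LT, beside -0.07 and -0.09 over all single-gene units. With all 14 libraries, the shares of members called among the 5 states and from warm to cold were thus near those of all units, with calls in both directions.

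The counts depended on single libraries. The fits without 1 library named here are those in which the count of members dropped furthest. In these the share of members called lay below that of all units. In others it lay above, as from warm to cold without SA replicate 2 (41.5%, against 37.2%). The 10 calls among the 5 states became 3 (7.32%) without IBA replicate 1, IBA replicate 2 or LT replicate 1, 4 (9.76%) without IBA replicate 3 or ET replicate 3, 5 (12.2%) without Ent replicate 1 or LT replicate 3, and 6 (14.6%) without SA replicate 1, while 17.8% to 22.6% of all units were called. The 15 calls from warm to cold became 7 (17.1%) without IBA replicate 3, LT replicate 1 or LT replicate 3, against 31.1%, 25.9% and 27.3% of all units. They became 8 (19.5%) without IBA replicate 2 or ET replicate 3, against 31.3% and 31.5%, and 9 (22.0%) without IBA replicate 1, against 31.4%. The 5 calls from IBA to LT became 0 without LT replicate 1, against 3.83% of all units, 1 (2.44%) without LT replicate 3, against 6.63%, 2 (4.88%) without any 1 of the IBA libraries, against 9.54% to 9.67%, and 3 (7.32%) without ET replicate 3, against 14.8%. With season as a covariate, 2 of the 5 calls from IBA to LT held (Eci2 and Pex6), and 5.78% of all single-gene units were called. Without LT replicate 1 or 3, LT held 1 library, which was taken to vary like the others. The direction of these calls depended in part on the scaling. With the total counts as library size, the calls from warm to cold were 12 higher and 4 lower (39.0% of members, against 37.5% of all single-gene units). With the uniquely mapped reads they were 13 higher and 3 lower (39.0%, against 38.4%). The calls of all units were not split by direction for these scalings. The median of all single-gene units moved from -0.07 to 0.05 and to 0.16, and that of the members from -0.03 to 0.09 and to 0.20. No called member changed its sign under any of these scalings.

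**Figure D1:**
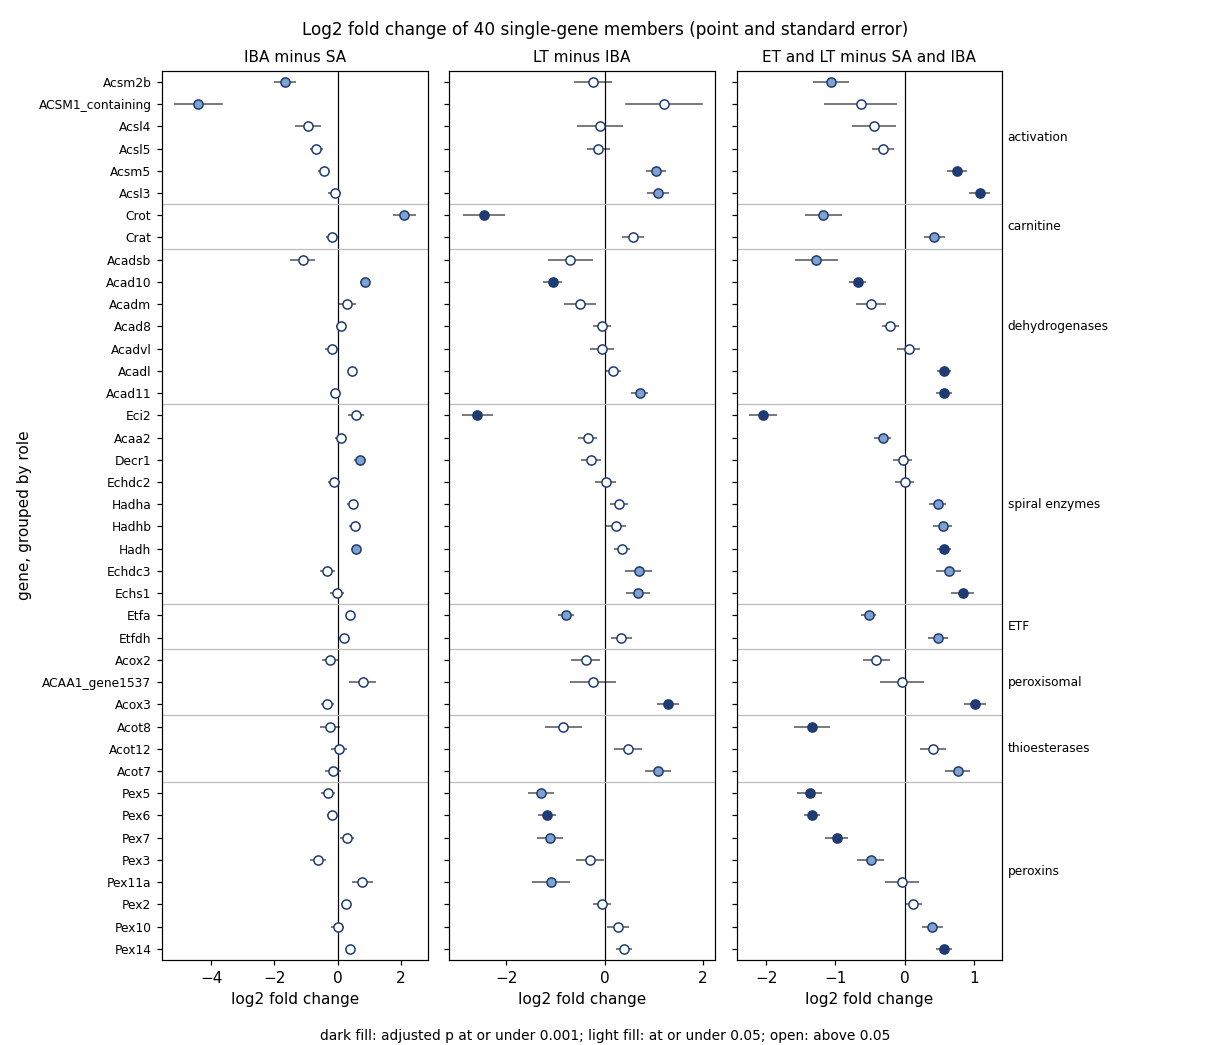
Log2 fold change with its standard error of 40 of the 41 single-gene members, grouped by role, for IBA against SA (left), LT against IBA (middle) and ET and LT against SA and IBA (right). Dark points had an adjusted p at or under 0.001, light points at or under 0.05 and open points above it; within most roles the points lie on both sides of 0, with Eci2 lowest on the right (-2.05) and Acsl3 highest (1.08).

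The acyl-CoA synthetases split by family member. Acsl3, a long-chain synthetase of the endoplasmic reticulum and of lipid droplets, rose 2.12-fold in the cold. Its unit (Itri6, 178432351 to 178500156, plus strand) had 97.6, 47.9 and 71.6 CPM in SA, 71.6, 64.0 and 69.6 in IBA, 96.8, 103 and 106 in Ent, 147, 174 and 139 in ET and 154 and 136 in LT. All 5 cold libraries lay above all 6 warm ones, and Ent lay above IBA and below both cold states. The difference from warm to cold had a log2 fold change 1.08, SE 0.15, adjusted p = 4.21e-05, and the call held in all 14. Among the 5 states the call of Acsl3 (adjusted p = 0.000695) held in 2 of 14. Acsl5, a long-chain synthetase of mitochondria and the endoplasmic reticulum, had 738, 756 and 533 CPM in SA, 371, 492 and 412 in IBA, 773, 476 and 465 in Ent, 405, 552 and 468 in ET and 380.5 and 399 in LT. Its SA libraries were all above IBA (log2 fold change -0.67, SE 0.22, adjusted p = 0.0924), and its LT libraries lay below those of Ent and ET and inside the IBA range (adjusted p = 0.879 from ET to LT). Acsl4, which prefers arachidonate, was not called in any comparison (adjusted p from 0.107 among the 5 states to 0.957 for ET to LT).

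The main long-chain synthetase of the liver, Acsl1, was counted in the merged unit Cenpu:Acsl1. This unit had 2435, 1206 and 4154 CPM in SA, 2962, 3382 and 4242 in IBA, 3587, 3024 and 2675 in Ent, 2117, 3119.9 and 3098 in ET and 3277 and 3012 in LT. SA ranged from the lowest library of all to almost the highest, and no comparison was called (adjusted p = 0.912 from warm to cold).

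The medium-chain synthetases of the mitochondrial matrix stood in a row on the plus strand of Itri9, Acsm5 from 117794783 to 117821033, Acsm2b from 117828639 to 117849570 and the unit named ACSM1_containing from 117872390 to 117901319, with gaps of 7605 and 22819 nt. The Acsm genes are close relatives, so that reads could be assigned to the wrong neighbour or lost, and their values are uncertain to that extent. Despite their order on one strand, their levels went different ways. Acsm5 had 269, 315 and 306 CPM in SA, 246, 186 and 227 in IBA, 467, 395 and 608 in Ent, 475, 314 and 433 in ET and 488 and 419 in LT, and rose 1.68-fold from warm to cold (log2 fold change 0.75, SE 0.14, adjusted p = 0.000492), with 1 cold library (ET replicate 2) within the range of SA. This call held in 6 of 14, being lost without SA replicates 1 and 3, IBA replicates 2 and 3, ET replicates 1 and 3 and LT replicates 1 and 3 (adjusted p up to 0.00369). From IBA to Ent its log2 fold change was already 1.16 (SE 0.19, adjusted p = 0.00378), with no overlap.

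Acsm2b, which also acts in the glycine conjugation of aromatic acids, was called among the 5 states (adjusted p = 0.000853). It had 455, 163 and 289 CPM in SA, 97.5, 123 and 66.7 in IBA, 106, 108 and 90.6 in Ent, 115, 58.7 and 67.2 in ET and 81.5 and 81.3 in LT. The summer libraries were all above the winter ones, which lay between 58.7 and 123 CPM. The difference from SA to IBA was -1.66 (SE 0.35, adjusted p = 0.0151). The neighbouring ACSM1_containing was spread widely, with 241, 42.9 and 216 CPM in SA, 5.68, 11.1 and 6.71 in IBA, 14.4, 34.0 and 20.0 in Ent, 63.5, 12.2 and 13.7 in ET and 18.1 and 18.1 in LT. SA replicates 1 and 3 stood far above all other libraries, and SA replicate 2 was below ET replicate 1. The call among the 5 states had an adjusted p = 0.000817, and the difference from SA to IBA was -4.40 (SE 0.77, adjusted p = 0.00623). The calls of Acsm2b and of ACSM1_containing among the 5 states each held in 2 of 14 fits, those without SA replicate 2 or ET replicate 1, with adjusted p up to 0.00655 and 0.00442 in the others. Acsm5 per kb was 0.471 to 1.54 times as high as Acsm2b in SA and 3.28 to 5.14 times as high in the cold.

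Crot, the peroxisomal carnitine octanoyltransferase that turns chain-shortened acyl-CoA into acylcarnitine for export, was high in IBA. Its unit (Itri2, 26539255 to 26580633, plus strand) had 135, 205 and 88.6 CPM in SA, 552, 601 and 692 in IBA, 377, 254 and 221 in Ent, 79.5, 193 and 183 in ET and 95.2 and 129.8 in LT. Every IBA library was above every library of the other states, of which Ent replicate 1 came closest. It fell 5.47-fold by LT (log2 fold change -2.45, SE 0.42, adjusted p = 0.000524 from IBA), and the call held in 9 of 14, being lost without IBA replicates 1, 2 and 3 and LT replicates 1 and 3 (adjusted p up to 0.0122). With season as a covariate this call was lost. From SA to IBA its log2 fold change was 2.11 (SE 0.36, adjusted p = 0.00573), the largest positive difference of the single-gene members in that comparison. Crat, the carnitine acetyltransferase that buffers acetyl-CoA, had 83.9, 102 and 91.3 CPM in SA, 68.5, 95.5 and 82.2 in IBA, 130.4, 107 and 74.0 in Ent, 117, 109.6 and 111 in ET and 101 and 142 in LT. It was not called in any comparison, and its log2 fold change from IBA to LT was 0.57 (SE 0.22, adjusted p = 0.0505).

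Carnitine palmitoyltransferase 1a, the gate for long-chain fatty acids into mitochondria, was counted in a merged unit with the neighbouring gene Tesmin (Cpt1a:Tesmin, Itri3, 5050190 to 5118728, plus strand). This unit had 444, 674 and 439 CPM in SA, 733, 839.7 and 865 in IBA, 1643, 1010.1 and 859 in Ent, 2185, 991 and 1474 in ET and 1744 and 1946 in LT. All cold libraries lay above all warm ones, and Ent spread over both ranges. The unit rose 2.60-fold from warm to cold (log2 fold change 1.38, SE 0.22, adjusted p = 0.000145), and the call held in all 14. Its log2 fold change between IBA and LT was 1.18 (adjusted p = 0.0097). The unit Prmt1:Adm5:Cpt1c, which holds the brain-type isoform together with an arginine methyltransferase, had 38.6, 39.3 and 29.7 CPM in SA, 25.0, 27.6 and 32.1 in IBA, 55.8, 62.3 and 39.9 in Ent, 107, 69.1 and 81.7 in ET and 74.8 and 85.9 in LT. It rose 2.61-fold from warm to cold (log2 fold change 1.39, SE 0.15, adjusted p = 7.66e-06) and 2.84-fold from IBA to LT (log2 fold change 1.50, SE 0.23, adjusted p = 0.000215). From warm to cold its call held in all 14, and from IBA to LT it held in 10 of 14, being lost without IBA replicates 1 and 2 and LT replicates 1 and 3 (adjusted p up to 0.00301). Cpt2 was not analysed here.

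The 7 single-gene members that open the mitochondrial cycle, or the breakdown of branched-chain amino acids, included 2 that rose and 1 that fell in the cold. Acadl, the long-chain dehydrogenase (Itri6, 166494513 to 166528672, minus strand), had 125, 121 and 126 CPM in SA, 153, 191 and 169 in IBA, 193, 194 and 183 in Ent, 265, 265 and 191 in ET and 184 and 203 in LT. The SA libraries were below all others, and the IBA libraries overlapped with the cold ones. It rose 1.48-fold from warm to cold (log2 fold change 0.57, SE 0.10, adjusted p = 0.000346), and the call held in 10 of 14, being lost without IBA replicates 1 and 3 and LT replicates 1 and 3 (adjusted p up to 0.00263). Among the 5 states its adjusted p was 0.000992, just under the threshold, and that call held in 1 of 14 fits, the one without ET replicate 3. Acad11, which joins a kinase-like domain to the dehydrogenase, had 767, 542 and 764 CPM in SA, 674, 655 and 647 in IBA, 858, 755 and 712 in Ent, 862, 1056 and 882 in ET and 1124 and 1031 in LT. It rose 1.49-fold in the cold (log2 fold change 0.57, SE 0.12, adjusted p = 0.000855) with no overlap of warm and cold, and the call held in 1 of 14 fits, the one without SA replicate 2.

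Acad10, a related gene of the same domain plan (Itri2, 155134848 to 155184850, minus strand), went the other way within winter. It had 30.1, 34.4 and 27.6 CPM in SA, 50.3, 56.4 and 61.1 in IBA, 45.1, 39.9 and 32.8 in Ent, 25.6, 23.4 and 25.4 in ET and 23.9 and 29.9 in LT. The IBA libraries were above all others, the ET libraries below those of SA, and Ent overlapped with SA. It fell 2.08-fold from IBA to LT (log2 fold change -1.06, SE 0.19, adjusted p = 0.000655), and the call held in 6 of 14, being lost without SA replicate 1, IBA replicates 1, 2 and 3, Ent replicate 2, ET replicate 3 and LT replicates 1 and 3 (adjusted p up to 0.0136). The fall from warm to cold was 1.60-fold (log2 fold change -0.68, SE 0.13, adjusted p = 0.000421), and that call held in 8 of 14, being lost without IBA replicates 2 and 3, Ent replicate 2, ET replicates 2 and 3 and LT replicate 1 (adjusted p up to 0.00385). Both calls were lost when library sizes were total counts or uniquely mapped reads, and the call from IBA to LT was lost with season as a covariate.

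Acadvl and Acadm, the very-long-chain and medium-chain dehydrogenases, were not called in any comparison. Acadvl had 79.3, 91.0 and 71.4 CPM in SA, 68.2, 76.1 and 67.5 in IBA, 126, 90.2 and 70.6 in Ent, 99.0, 71.9 and 98.6 in ET and 54.7 and 81.9 in LT, with overlap between every pair of states compared. Acadm had 94.5, 61.9 and 133 CPM in SA, 114, 116 and 126 in IBA, 105, 115 and 86.9 in Ent, 45.8, 90.5 and 75.3 in ET and 102 and 65.1 in LT, and its log2 fold change from IBA to LT was -0.51 (SE 0.32, adjusted p = 0.209). Acadsb and Acad8, which act on branched short chains, had log2 fold changes from warm to cold of -1.27 (SE 0.31, adjusted p = 0.00303) and -0.21 (SE 0.12, adjusted p = 0.152). The short-chain dehydrogenase was merged with 2 neighbours (Acads:Unc119b:Mlec). That unit had 237, 217 and 189.9 CPM in SA, 169.7, 164 and 167 in IBA, 149.7, 134 and 90.6 in Ent, 162, 159 and 129 in ET and 129 and 151 in LT and was not called (adjusted p = 0.0199 from warm to cold).

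Eci2, an isomerase that moves the double bond of unsaturated fatty acids so that the cycle can go on, had the largest fall of the single-gene members, both from IBA to LT and from warm to cold. Its unit (Itri8, 20038208 to 20060727, plus strand) had 438, 303 and 420.3 CPM in SA, 522, 609 and 615 in IBA, 360.2, 222 and 288 in Ent, 98.7, 189.5 and 123 in ET and 77.1 and 116 in LT. IBA lay highest, followed by SA, Ent and the cold states, and the only neighbours in that order to overlap were SA with Ent and ET with LT. It fell 6.03-fold from IBA to LT (log2 fold change -2.59, SE 0.32, adjusted p = 5.15e-05), and from warm to cold 4.13-fold (log2 fold change -2.05, SE 0.20, adjusted p = 3.25e-06). The call from IBA to LT held in 13 of 14, being lost without LT replicate 1 (adjusted p up to 0.00167), and those from warm to cold and among the 5 states held in all 14. The former was also called with season as a covariate. Decr1, the reductase that acts beside it on polyunsaturated chains, had 109, 97.1 and 67.8 CPM in SA, 149, 136 and 165 in IBA, 151, 141 and 140.2 in Ent, 82.9, 121 and 115 in ET and 124 and 123 in LT. Its warm and cold ranges overlapped (log2 fold change -0.03, SE 0.13, adjusted p = 0.855), and it was not called in any comparison. Eci2 per kb was 7.49 to 14.9 times as high as Decr1 in warm libraries and 1.49 to 3.76 times as high in cold ones.

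The other enzymes of the cycle moved less. Hadh, the short-chain hydroxyacyl-CoA dehydrogenase, had 237, 288 and 282 CPM in SA, 385, 427 and 403 in IBA, 473, 364 and 531 in Ent, 433, 475 and 477 in ET and 495 and 542 in LT. It rose 1.48-fold in the cold (log2 fold change 0.57, SE 0.11, adjusted p = 0.000482), with cold libraries above all warm ones, and the call held in 6 of 14, being lost without SA replicate 1, IBA replicates 1, 2 and 3, ET replicates 2 and 3 and LT replicates 1 and 3 (adjusted p up to 0.00332). Echs1, the short-chain hydratase, had 96.9, 71.8 and 67.6 CPM in SA, 70.8, 87.6 and 75.7 in IBA, 162, 167 and 133 in Ent, 182, 106 and 179.7 in ET and 102 and 148 in LT. It rose 1.78-fold in the cold (log2 fold change 0.84, SE 0.17, adjusted p = 0.000735), with no overlap, and the call held in 5 of 14, being lost without SA replicates 2 and 3, IBA replicates 1, 2 and 3, Ent replicate 1, ET replicates 1 and 3 and LT replicate 3 (adjusted p up to 0.00663). Every Ent library of Echs1 was above every warm one, and its difference from IBA to Ent was 0.98 (SE 0.22, adjusted p = 0.0133).

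Hadha and Hadhb, the subunits of the mitochondrial trifunctional protein, start head to head on Itri12, with 992 nt between their units after the removal of 500 nt behind each start. Hadha had 193, 130.1 and 203 CPM in SA, 259, 224 and 251 in IBA, 247, 219 and 234 in Ent, 234, 311 and 283 in ET and 289 and 313 in LT, and Hadhb had 261, 157 and 237 CPM in SA, 353, 288 and 331 in IBA, 368, 259 and 314 in Ent, 343, 435 and 424 in ET and 377 and 379.7 in LT. Neither was called, with log2 fold changes from warm to cold of 0.48 (SE 0.12, adjusted p = 0.00417) and 0.55 (SE 0.14, adjusted p = 0.00411). Their ratio per kb stayed between 0.782 and 1.001 in all 14 libraries. Acaa2, the mitochondrial thiolase that ends the cycle, had 499.9, 292 and 438 CPM in SA, 431, 435 and 449 in IBA, 383, 359.8 and 342 in Ent, 321, 315 and 367 in ET and 327 and 362 in LT and was not called (adjusted p = 0.0385 from warm to cold). Of the remaining hydratase-like genes, Echdc3 had a log2 fold change from warm to cold of 0.64 (SE 0.18, adjusted p = 0.00748), and Echdc2, which was not called either, had an adjusted p = 0.989.

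The merged unit Lgals4:Ech1:Hnrnpl:G12203 (Itri16, 13344324 to 13379040, minus strand) holds Ech1, an isomerase of dienoyl-CoA, together with a galectin and the splicing factor Hnrnpl. It had 244, 241 and 276 CPM in SA, 163, 198 and 186 in IBA, 328, 416 and 389 in Ent, 664, 526 and 558 in ET and 515 and 529 in LT, with IBA lowest and every cold library above every Ent library. It rose 2.86-fold from IBA to LT (log2 fold change 1.52, SE 0.15, adjusted p = 1.43e-05) and 2.56-fold from warm to cold (log2 fold change 1.36, SE 0.10, adjusted p = 4.39e-07), and both calls held in all 14 fits. Which of its genes carried the reads cannot be told from these counts. Eci1:Rnps1 had 253, 330.3 and 258 CPM in SA, 288, 259 and 263 in IBA, 263, 223 and 169.9 in Ent, 297, 202 and 242 in ET and 278 and 288 in LT and was not called (adjusted p = 0.733 from warm to cold).

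Etfa encodes the alpha subunit of the flavoprotein that takes electrons from the dehydrogenases, and Etfdh the membrane enzyme that passes them to ubiquinone. Etfa had 353, 279.7 and 380.1 CPM in SA, 424, 420.4 and 502 in IBA, 497, 415 and 418 in Ent, 249.6, 317 and 279.8 in ET and 259 and 263 in LT, with every Ent library above every cold one. Etfdh had 125, 78.7 and 90.8 CPM in SA, 124, 105 and 114 in IBA, 119, 102 and 123 in Ent, 115, 179 and 159 in ET and 148 and 141 in LT. Neither was called. Etfa had, from warm to cold, a log2 fold change -0.52, SE 0.11, adjusted p = 0.00115, whereas Etfdh had a log2 fold change 0.48, SE 0.14, adjusted p = 0.00894. Their ratio per kb was 1.13, 1.42 and 1.67 in SA, 1.36, 1.60 and 1.75 in IBA, 1.67, 1.62 and 1.35 in Ent, 0.864, 0.708 and 0.701 in ET and 0.699 and 0.743 in LT, above 1 in every SA, IBA and Ent library and below 1 in every cold one. The beta subunit was merged with Vsig10l, and this unit had 104, 73.7 and 106 CPM in SA, 66.2, 83.6 and 76.5 in IBA, 83.6, 85.0 and 56.8 in Ent, 128, 99.8 and 115 in ET and 135 and 149 in LT (log2 fold change 0.59, SE 0.14, adjusted p = 0.00243 from warm to cold, not called).

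Acox3, the oxidase of branched chains such as pristanoyl-CoA (Itri14, 65986036 to 66029172, minus strand), had 141, 163 and 118 CPM in SA, 105, 124 and 107 in IBA, 189.8, 177 and 167 in Ent, 314, 158 and 229 in ET and 260.5 and 288 in LT. It rose 2.45-fold from IBA to LT (log2 fold change 1.29, SE 0.23, adjusted p = 0.000571), the only single-gene member called higher in that comparison with TMM scaling in edgeR, and the call held in 8 of 14, being lost without IBA replicates 1, 2 and 3, ET replicate 3 and LT replicates 1 and 3 (adjusted p up to 0.00656). With season as a covariate that call was lost. From warm to cold it rose 2.02-fold (log2 fold change 1.01, SE 0.15, adjusted p = 8.74e-05), with ET replicate 2 inside the SA range, and the call held in all 14. Acox2 had 1352, 610.4 and 1014 CPM in SA, 729.8, 943 and 873 in IBA, 1137, 899.9 and 707 in Ent, 783, 830.4 and 582 in ET and 663 and 639 in LT, and its log2 fold change from warm to cold was -0.41 (SE 0.20, adjusted p = 0.0845).

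The bifunctional enzyme of the next steps was counted as Ehhadh:EHHADH_containing. The unit had 1041, 549.6 and 1639 CPM in SA, 1262, 1233 and 1121 in IBA, 985, 846 and 611 in Ent, 356, 535 and 753 in ET and 573 and 619.9 in LT, with the IBA libraries above all Ent and cold ones and SA spread widely. It was not called. Its difference between IBA and LT was -1.02 on the log2 scale (SE 0.40, adjusted p = 0.0481) and -0.995 from warm to cold (SE 0.26, adjusted p = 0.00509). The peroxisomal thiolase appeared as units named for copies of ACAA1 on Itri2, whose likeness was not examined. Reads that matched several copies could be lost, since the study reports counting uniquely aligned reads. ACAA1_gene1530:ACAA1_like had 89.7, 99.0 and 209 CPM in SA, 106, 178 and 141 in IBA, 267, 343 and 261 in Ent, 230.0, 329.6 and 431 in ET and 302 and 579 in LT and rose 2.78-fold in the cold (log2 fold change 1.47, SE 0.26, adjusted p = 0.000304), a call that held in 11 of 14, being lost without IBA replicates 1 and 3 and LT replicate 3 (adjusted p up to 0.00278). ACAA1_gene1537, 206926 nt away on the other strand, had 61.9, 108 and 184 CPM in SA, 181, 253 and 185 in IBA, 228, 264 and 193 in Ent, 68.2, 140.2 and 188 in ET and 103 and 246 in LT and was not called (adjusted p = 0.912 from warm to cold).

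The thioesterases release the fatty acid from coenzyme A. Acot8, the peroxisomal one, had 47.7, 39.9 and 40.2 CPM in SA, 32.4, 40.3 and 35.6 in IBA, 31.4, 36.7 and 15.1 in Ent, 16.1, 6.28 and 13.2 in ET and 19.2 and 21.1 in LT. It fell 2.53-fold from warm to cold (log2 fold change -1.34, SE 0.25, adjusted p = 0.000531) with no overlap, and the call held in 6 of 14, being lost without SA replicates 1 and 3, IBA replicates 1, 2 and 3, ET replicate 3 and LT replicates 1 and 3 (adjusted p up to 0.00449). It was also lost under both other scalings. The cytosolic Acot7 and Acot12 were not called. Their log2 fold changes from warm to cold were 0.76 (SE 0.18, adjusted p = 0.00249) and 0.41 (SE 0.19, adjusted p = 0.0744).

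**Figure D2:**
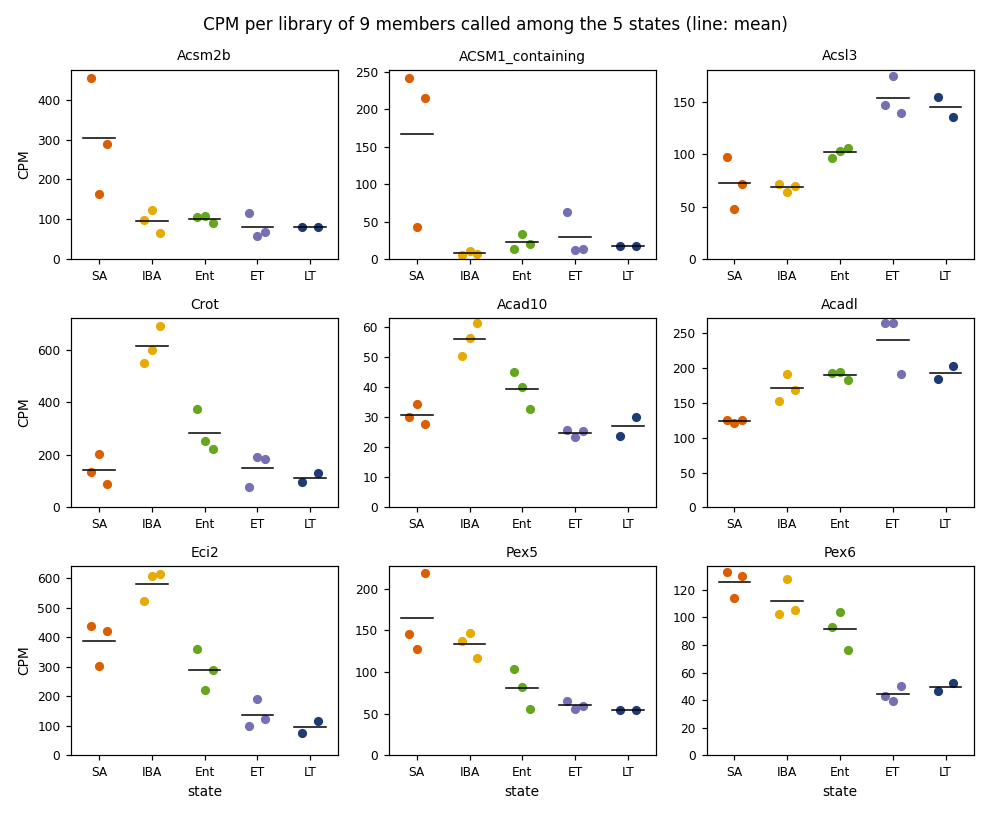
CPM in each library (points) with the state mean (line) for 9 of the 10 single-gene members called among the 5 states, by state. Crot, Acad10 and Eci2 had their highest points in IBA, Acsm2b and ACSM1_containing in SA, and Acsl3 in the cold, while Pex5 and Pex6 were lowest in the cold. Among the 5 states, the calls of Crot, Acad10 and Pex5 held in 10 of 14 fits each, and those of Eci2 and Pex6 in all 14. The calls of Acsl3, Acsm2b and ACSM1_containing held in 2 of 14 each, and that of Acadl in 1.

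The import of a matrix protein starts with a soluble receptor, Pex5 for the common C-terminal signal or Pex7 for the rarer N-terminal one, which docks at Pex14. Pex2 and Pex10 are subunits of the ubiquitin ligase that marks the receptor, and the ATPase Pex6 acts in pulling it out of the membrane again. From warm to cold Pex14 rose, whereas Pex5, Pex6 and Pex7 fell, so that the main receptor and its docking protein went opposite ways.

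Pex6 (Itri8, 46994485 to 47011656, minus strand) had 133, 114 and 130.0 CPM in SA, 102, 128 and 105 in IBA, 93.2, 104 and 76.6 in Ent, 42.7, 39.7 and 50.1 in ET and 46.7 and 52.6 in LT. Every cold library was below every other library. It fell 2.53-fold from warm to cold (log2 fold change -1.34, SE 0.12, adjusted p = 1.32e-06) and 2.25-fold from IBA to LT (log2 fold change -1.17, SE 0.18, adjusted p = 0.000197). From Ent to ET it was the only single-gene member called (log2 fold change -1.05, SE 0.15, adjusted p = 0.000807). The call from warm to cold held in all 14 fits. The call from IBA to LT held in 12 of 14, being lost without LT replicates 1 and 3 (adjusted p up to 0.005), and that from Ent to ET held in 2 of 14, being lost without SA replicates 1 and 3, IBA replicates 1, 2 and 3, Ent replicates 1 and 2, ET replicates 1, 2 and 3 and LT replicates 1 and 3 (adjusted p up to 0.00426). The call from Ent to ET was also lost with total counts as library size.

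Pex5, the main receptor (Itri4, 101911211 to 101938036, minus strand), had 146, 128 and 219 CPM in SA, 137, 147 and 117 in IBA, 104, 82.1 and 55.7 in Ent, 65.7, 55.6 and 59.2 in ET and 54.4 and 54.8 in LT. The warm libraries were all above the cold ones and above Ent. It fell 2.59-fold from warm to cold (log2 fold change -1.37, SE 0.18, adjusted p = 2.65e-05), a call that held in all 14 fits. The difference between IBA and LT was -1.29 (SE 0.27, adjusted p = 0.0017), and that between IBA and Ent -0.73 (SE 0.23, adjusted p = 0.0478). Pex7 had 42.9, 42.4 and 48.4 CPM in SA, 62.8, 49.5 and 51.9 in IBA, 41.5, 29.3 and 31.4 in Ent, 15.8, 30.0 and 28.1 in ET and 25.5 and 25.2 in LT, and fell 1.98-fold from warm to cold (log2 fold change -0.98, SE 0.17, adjusted p = 0.000274) with no overlap. Its call held in 12 of 14, being lost without LT replicates 1 and 3 (adjusted p up to 0.00221), and it was lost when library sizes were uniquely mapped reads. The ratio of Pex7 to Pex5 per kb lay between 0.0918 and 0.235 over all libraries. It was 0.0918 to 0.138 in SA, 0.140 to 0.190 in IBA and 0.149 to 0.235 in Ent. In ET it was 0.0998 to 0.225, which overlapped with SA, and in LT 0.191 to 0.195.

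Pex14, the docking protein (Itri11, 33828600 to 33977377, plus strand), had 230.2, 287 and 186 CPM in SA, 301, 290.1 and 331 in IBA, 392, 317 and 329 in Ent, 379, 376 and 414 in ET and 389 and 420.1 in LT. It rose 1.48-fold from warm to cold (log2 fold change 0.57, SE 0.11, adjusted p = 0.000746), with no overlap of warm and cold. The call held in 3 of 14, being lost without SA replicates 1 and 3, IBA replicates 1, 2 and 3, Ent replicate 3, ET replicates 1, 2 and 3 and LT replicates 1 and 3 (adjusted p up to 0.00459). The ratio of Pex14 to Pex5 per kb was 0.285, 0.405 and 0.153 in SA, 0.395, 0.357 and 0.51 in IBA, 0.681, 0.696 and 1.06 in Ent, 1.04, 1.22 and 1.26 in ET and 1.29 and 1.38 in LT, so that it was at most 0.510 in warm and at least 1.04 in cold libraries. These pairs were picked for their known partnership after the values had been seen, and the ratios are given as a description without a test.

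**Figure D3:**
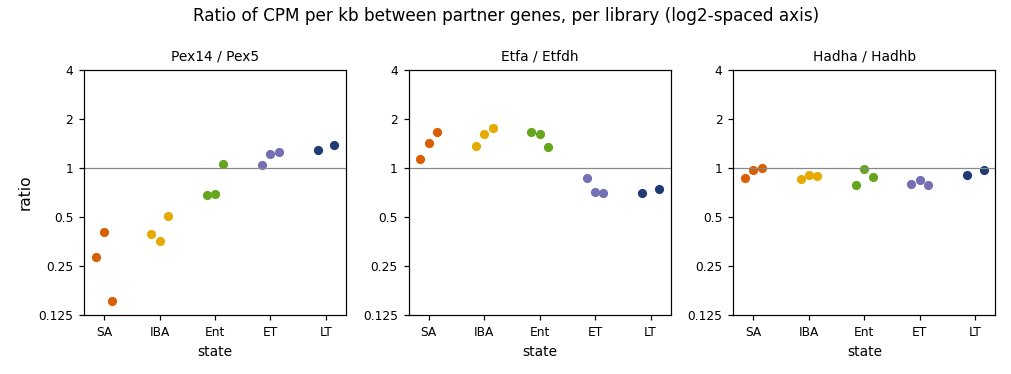
Ratio of CPM per kb between partner genes in each library, by state, on a log2-spaced axis with a line at 1. Pex14/Pex5 rises from warm to cold libraries (at most 0.510 in warm, at least 1.04 in cold), Etfa/Etfdh passes from above 1 to below 1, and Hadha/Hadhb stays between 0.782 and 1.001.

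Pex2, Pex3, Pex10 and Pex11a were not called. Pex2 had a log2 fold change from warm to cold of 0.12 (SE 0.12, adjusted p = 0.397), Pex10 of 0.40 (SE 0.15, adjusted p = 0.0338), and Pex3, which inserts membrane proteins, of -0.49 (SE 0.20, adjusted p = 0.043). Pex11a, which elongates peroxisomes before they divide, had 16.9, 9.63 and 19.8 CPM in SA, 22.7, 33.7 and 24.7 in IBA, 47.5, 42.6 and 48.0 in Ent, 24.0, 33.4 and 37.2 in ET and 7.10 and 18.3 in LT. Its Ent libraries were above those of every other state and its LT libraries overlapped with SA alone, but no comparison was called (5 states, adjusted p = 0.0032).

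The merged unit Kiaa1841:G7852:G7854:G7855:G7856:Pex13, which holds the docking protein Pex13, had 227, 133 and 228 CPM in SA, 152, 159 and 162 in IBA, 156, 184 and 213 in Ent, 241, 283 and 234 in ET and 259 and 238 in LT. This unit was not called (log2 fold change 0.51, SE 0.14, adjusted p = 0.00619 from warm to cold) although warm and cold did not overlap. Pex16 and Pex19, which handle membrane proteins, were also counted in merged units. The units Pex16:CUNH11orf94 and G4867:Pex19:Copa had 70.8 to 114 and 218 to 269.8 CPM in warm libraries and 102 to 198 and 244 to 409 CPM in cold ones. Their adjusted p from warm to cold was 0.0216 and 0.018.

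Over all 14 merged units, 3 were called among the 5 states (21.4%, against 26.4% of all single-gene units). The same 3 were called higher from IBA to LT and 0 lower (21.4%, against 17.6%, with 9.46% higher and 8.18% lower). From warm to cold, 5 were called higher and 0 lower (35.7%, against 37.0%, with 18.3% higher and 18.7% lower). The median log2 fold change of the 14 merged units from warm to cold was 0.54, beside -0.07 over all single-gene units. Merged units outside the members were not summarised, and the part of the other genes in each unit was not tested.

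**Figure D4:**
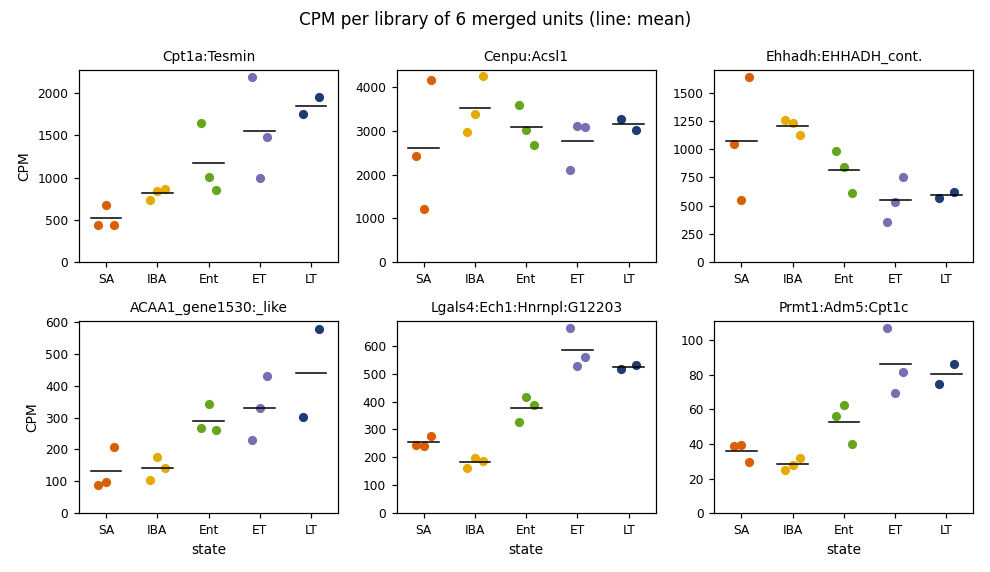
CPM in each library (points) with the state mean (line) for 6 of the 14 merged units, by state. The units that hold Cpt1a, Ech1 and Cpt1c and the ACAA1_gene1530 unit lie higher in the cold, the Ehhadh unit has its highest mean in IBA, and the Acsl1 unit overlaps across all states.

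The seasonal step, from SA to IBA, compares warm livers of summer and winter. No single-gene member was called, beside 0.0213% of all units, but 19 of 41 had an unadjusted p under 0.05 (46.3%, against 23.4% of all), and DESeq2 called 4 (9.76%, against 3.72%). At an adjusted p of 0.05, 6 members passed, 4 higher and 2 lower in IBA, against 5.57% of all units (2.7% higher and 2.87% lower). Those higher in IBA were Crot, Acad10, Decr1 (log2 fold change 0.72, SE 0.18, adjusted p = 0.0373) and Hadh (log2 fold change 0.59, SE 0.14, adjusted p = 0.0323), and those lower were Acsm2b and ACSM1_containing, whose values are given above. The 6 were picked by these same values, so that the lack of overlap of SA and IBA in all 6 adds no support. The members' median log2 fold change was 0.00, beside -0.01 over all single-gene units.

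From IBA to Ent, as the body cooled, no member was called, beside 0.0425% of all units, whereas 10 had an unadjusted p under 0.05 (24.4%, against 33.4% of all), and DESeq2 called 2 (4.88%, against 6.99%). At 0.05, 6 members passed, 3 each way, against 16.7% of all (8.57% higher and 8.12% lower). Acsm5, Echs1 and Acox3 (log2 fold change 0.67, SE 0.21, adjusted p = 0.0447) were on the higher side, and Eci2 (log2 fold change -1.005, SE 0.25, adjusted p = 0.0202), Crot (log2 fold change -1.12, SE 0.35, adjusted p = 0.0454) and Pex5 on the lower side. From Ent to ET, Pex6 was called, 1 of 41 members (2.44%), against 2.3% of all units, 1.13% higher and 1.17% lower. At 0.05, 6 passed, 1 higher (Acsl3) and 5 lower (Pex6, Eci2, Etfa, Acad10 and Acot8), against 29.2% of all, 15.4% higher and 13.8% lower.

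Within torpor, from ET to LT, 0 members were called at 0.001, beside 0.0% of all single-gene units, and 0 at 0.05, beside 0.34%. Without adjustment, 2 members had a p under 0.05 (4.88%, against 9.27% of all), and DESeq2 called 0, against 0.701%. The largest difference was that of Pex11a (log2 fold change -1.31, SE 0.38, adjusted p = 0.234), whose ET and LT libraries did not overlap. ET had 3 libraries and LT 2, each state from a different season.

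Other genes of the pathway were taken from a list of 101 names of carriers, ketone body enzymes, peroxisomal enzymes and regulators, of which 48 had a single-gene unit. Among the 5 states 14 of these were called (29.2%), from IBA to LT 10 (5 higher and 5 lower), and from warm to cold 17 (9 higher and 8 lower). Their median log2 fold change from IBA to LT was 0.28, beside -0.09 over all single-gene units. The shares of all single-gene units called in these comparisons were 26.4%, 17.6% and 37.0%. The genes of the list called among the 5 states included Scp2, Mlycd, Pxmp2, Hnf4a, Ivd, Bdh1 and Acbd5, whose calls held in all 14 fits. They also included Pipox, held in 8 of 14, and Fabp1, held in 7. The calls of Gcdh, Slc27a4 and Zfand6 held in 2 of 14 each, and that of Mff in 1. In the comparison of IBA and LT, the count of 10 became 3 without LT replicate 1 and 6 without LT replicate 3, IBA replicate 2 or IBA replicate 3. Among the 5 states, the count of 14 became 7 without LT replicate 1, LT replicate 3, IBA replicate 3 or ET replicate 2, 8 without IBA replicate 2 or ET replicate 3, and 9 without SA replicate 1, IBA replicate 1, Ent replicate 3 or ET replicate 1. With season as a covariate, 4 were called from IBA to LT, and the calls of Fabp1, Bdh1 and Mlycd in that comparison were lost.

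Fabp1, the liver fatty acid binding protein, had 56.2, 278 and 129.9 CPM in SA, 165, 367 and 253 in IBA, 147, 135 and 166 in Ent, 37.5, 21.8 and 34.2 in ET and 18.3 and 29.6 in LT, with every cold library below every other one. It fell 10.9-fold from IBA to LT (log2 fold change -3.45, SE 0.59, adjusted p = 0.000481), and the call held in 10 of 14, being lost without IBA replicates 2 and 3 and LT replicates 1 and 3 (adjusted p up to 0.0117). Pipox, a peroxisomal oxidase of pipecolic acid and sarcosine, had 133, 81.4 and 193 CPM in SA, 31.3, 100.1 and 70.6 in IBA, 21.8, 61.5 and 39.7 in Ent, 21.4, 16.1 and 5.90 in ET and 8.31 and 8.40 in LT. It fell 8.71-fold from warm to cold (log2 fold change -3.12, SE 0.43, adjusted p = 4.24e-05), a call that held in all 14 fits. Bdh1, which interconverts the ketone bodies acetoacetate and beta-hydroxybutyrate, had 146, 157 and 241 CPM in SA, 323, 373 and 339 in IBA, 153, 148 and 86.1 in Ent, 89.2, 86.0 and 59.5 in ET and 57.9 and 87.9 in LT, with IBA above all others. It fell 4.73-fold from IBA to LT (log2 fold change -2.24, SE 0.31, adjusted p = 0.00013), and the call held in 13 of 14, being lost without LT replicate 1 (adjusted p up to 0.00382).

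Pxmp2, a channel of the peroxisomal membrane, had 163, 114 and 147 CPM in SA, 81.0, 102 and 96.3 in IBA, 127, 149 and 131 in Ent, 458, 305 and 364 in ET and 445 and 445 in LT, and rose 4.77-fold from IBA to LT (log2 fold change 2.25, SE 0.19, adjusted p = 8.50e-06). Ivd, the isovaleryl-CoA dehydrogenase of leucine breakdown, had 217, 188 and 224 CPM in SA, 98.3, 122 and 105 in IBA, 166, 197 and 129.7 in Ent, 364, 377 and 320.1 in ET and 381 and 341 in LT, and rose 3.33-fold (log2 fold change 1.74, SE 0.17, adjusted p = 1.56e-05). Mlycd, the decarboxylase that removes malonyl-CoA, the inhibitor of Cpt1a, had 44.8, 38.2 and 41.8 CPM in SA, 38.6, 49.7 and 42.9 in IBA, 84.4, 73.3 and 72.0 in Ent, 108, 91.7 and 108 in ET and 108 and 148 in LT. It rose 2.92-fold from IBA to LT (log2 fold change 1.54, SE 0.17, adjusted p = 2.53e-05), and the calls of these 3 genes held in all 14 fits. In each of the 3, every cold library was above every warm one. Ppargc1a, the coactivator that drives oxidative genes in fasting, had 662, 760.3 and 451 CPM in SA, 556, 566 and 556 in IBA, 733, 693 and 833 in Ent, 1156, 456 and 763 in ET and 880.4 and 633 in LT and was not called (adjusted p = 0.263 from IBA to LT). Ppara, without a single-gene unit, was not analysed here.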

How the data were processed

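Nuclei of frozen liver were run on with a labelled nucleotide in GRO-seq. Per the labels and the study's methods, the authors trimmed the reads with cutadapt, aligned them with BWA to the HiC_Itri_2 genome, redefined gene bodies from the GRO-seq reads, removed the first 500 nt after the start site, merged overlapping genes, and counted reads with featureCounts. The deposited values are raw counts per unit and library, without normalization, and tool versions are not given in the sources used here. Reads without molecular identifiers are not independent molecules.

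Counts of all 6324 units in 14 libraries were fitted here with edgeR 4.0.16 (R 4.3.3, TMM, quasi-likelihood, 5 states in 1 model), with Benjamini-Hochberg adjustment over all units and a threshold of 0.001. No unit was filtered out. CPM values were scaled with the TMM factors. The warm to cold contrast is the mean of ET and LT minus the mean of SA and IBA. Steps were tested on simulated data, Python 3.11.15 was used for summaries, and the alternatives were DESeq2 1.42.0, other scalings, season as a covariate, a minimum of 10 counts in every library, a block for the replicate number, an adjusted p of 0.05 and each library left out.

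The members, the list of 101 other pathway names and the marker lists were chosen with earlier results of these data known. By rule, the text names the members called among the 5 states, those of the textbook route, the merged units, up to 6 called genes of the pathway list, and Ppara and Ppargc1a. Results of some further genes are not reported here. Further members were named after their values had been seen. Of the 41 single-gene members, 37 matched a symbol of RefSeq (assembly mIctTri1.hap1), which was used for names only, and no sequence was examined. Each library is 1 animal, and the spread between libraries includes that between animals.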

Additional observations from a re-analysis of the deposited data

How the results depend on the processing

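Calls rested on 3 animals a state, and for LT on 2. The number of calls depended on the test, whereas the direction of every member called in the main analysis was kept under the alternatives that could be fitted. Season as a covariate could not be fitted among the 5 states, from warm to cold, or in the steps that involve ET, because ET fills a season of its own. The cause of the shifts listed here was not tested.

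With DESeq2, the members called were 23 among the 5 states (10 in edgeR), 4 from SA to IBA and 2 from IBA to Ent (0 each), 3 from Ent to ET (1) and 13 from IBA to LT (5), while DESeq2 called 51.4%, 3.72%, 6.99%, 15.4% and 32.2% of all single-gene units, and the pathway list had 26 among the 5 states (14) and 18 from IBA to LT (10). With an adjusted p of 0.05 in edgeR, these counts were 27, 6, 6, 6 and 16 for the members, with 28 from warm to cold (15), and 32 and 26 for the pathway list. From warm to cold, DESeq2 called 22 members (15 in edgeR), 12 higher and 10 lower (53.7%, against 48.9% of all single-gene units). With total counts as library size, the call from Ent to ET was lost (0). Among the 5 states, total counts and uniquely mapped reads each gave 13 members called (31.7%), against 26.9% and 28.6% of all single-gene units. With season as a covariate, 2 members and 4 genes of the list were called from IBA to LT.

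Same-numbered libraries did not deviate together (median r 0.04 over 26 pairs, 6 of them over 0.1, and 5 of 14 libraries best matched by their own number), so that the numbers are taken as names only. With replicate number as a block, 3 members were called among the 5 states, 0 from Ent to ET, 2 from IBA to LT and 9 from warm to cold, beside 19.3%, 0.914%, 12.5% and 32.5% of all single-gene units, and 9 genes of the list among the 5 states, and the block moved no other count by over 1.5 times.

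Leaving out 1 library in turn gave 3 to 10 calls among the 5 states, 0 to 1 from Ent to ET, 0 to 7 from IBA to LT, 7 to 17 from warm to cold, and 0 in the other steps, and for the list 7 to 12 among the 5 states and 3 to 11 from IBA to LT.

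The alternatives were also compared for 62 log2 fold changes of named genes, from SA to IBA and from IBA to LT only. Of their values under the alternatives, 1238 kept sign and side of the threshold, 30 lost and 19 gained the call, and 15 changed sign. Those 15 were all in comparisons in which the gene was not called. None of these genes was called from SA to IBA, where to keep the side was to stay uncalled. Calls among the 5 states and from warm to cold are not in these counts, and many of them were lost in fits without 1 library. The ranges over the fits that left out 1 library were, from SA to IBA, -0.10 to 0.26 for Acaa2, -0.35 to 0.0081 for Ppargc1a, -0.0276 to 0.15 for Mlycd, -0.30 to 0.19 for Acsl3 and -0.11 to 0.16 for Echs1, and, from IBA to LT, -0.37 to 0.21 for Acadvl. With season as a covariate, the difference from SA to IBA was 0.0409 for Acsl3 and 0.13 for Echs1. With total counts it was 0.0199 for Echs1, and that from IBA to LT was 0.0588 for Acadvl. With uniquely mapped reads the latter was 0.14 for Acadvl and 0.06 for Acsl5.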

Other observations

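The Ent animals were caught while cooling, and entered neither side of the comparison of warm and cold livers. For the units called in that comparison, the place of Ent on the way from the warm to the cold mean was computed on the log2 scale, where 0% is the warm mean and 100% the cold mean. Over all 1740 called single-gene units the median place was 41.7%, with 1097 of them under 50%. Over the 15 called single-gene members it was 54.3%, with 7 under 50%. The 9 members that rose in the cold had a median place of 65.1% (3 under 50%), beside 41.6% over the 859 units that rose, and the 6 that fell had 36.0% (4 under 50%), beside 41.9% over the 881 that fell. These medians are a description without a test, and each place rests on 3 Ent libraries.

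The synthetase Acsm5 and the hydratase Echs1 had Ent levels beyond their cold mean, at 125.3% and 116.6%. Hadh was at 82.3%, Acadl at 67.6% and Pex14 at 65.1%, whereas Acad10 was at 11.2%, Pex6 at 28.0%, Eci2 at 34.7%, Acad11 at 35.0% and Acot8 at 37.3%. Pex5 was at 64.1%. Acsl3, Acox3 and Pex7 lay near the middle, at 49.3%, 49.9% and 54.3%. The merged units with Cpt1a and with Ech1 were at 61.6% and 59.6%.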
